A study of Mus musculus with 18 samples.

Results

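Mock cells treated with 1.0 µM MG132, an inhibitor of the proteasome, were compared with mock cells given vehicle. The 6 libraries, 3 at 1.0 µM and 3 with vehicle, were picked from the 18 of the series by the condition recorded for each library in the deposited fragment table. All 18 libraries came from mouse embryonic fibroblasts of genotype MafF-/-::MafG-/-::MafK-/-, so the vehicle cells lacked the small Maf proteins too. Besides these 6, the comparisons below use the 3 libraries of mock cells at 0.3 µM, and the 3 at 1.0 µM and 3 with vehicle of the T-N1G line, whose cells hold Nrf1 and MafG as one tethered heterodimer. Every treatment lasted 12 h. The labels do not state whether a line is a single clone, how T-N1G is driven or which parts of the Maf genes were deleted. They do not say either whether replicate libraries stem from separate cultures. The p-values therefore measure the scatter of the libraries alone, and part or all of it may be technical.

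The proteasome is the protease that degrades proteins tagged with ubiquitin, and MG132 is a peptide aldehyde that blocks its active sites. When misfolded proteins pile up, heat shock factor 1 is freed from chaperones and switches on chaperone genes, while stress kinases that phosphorylate eIF2 raise the translation of the transcription factor ATF4. Nrf1, the product of Nfe2l1, is itself destroyed by the proteasome. When it escapes degradation it pairs with a small Maf protein on DNA and raises the transcription of proteasome subunit genes. The fibroblasts examined here lack that partner.

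Depth was 18751511, 19101028 and 20739895 fragments in the libraries at 1.0 µM, against 20838877, 20940593 and 20892628 in the vehicle libraries. Levels are given as CPM, fragment counts put on a common library size by the trimmed mean of M-values (TMM), always in the order of libraries 1, 2 and 3, and changes as log2 fold changes of 1.0 µM over vehicle. A gene was called when its adjusted p was below 0.05 in edgeR's quasi-likelihood test, with Benjamini-Hochberg adjustment over the 13258 genes tested. By that rule 69.7% of the genes were called, 32.4% higher and 37.4% lower at 1.0 µM, and these shares are the background for each list below. With a change of 2-fold or more, 13.4% of all genes were higher and 12.0% lower. For 72.5% of the genes the groups did not overlap. The spread between libraries was wider at 1.0 µM, with a median SD over genes of 0.19 on the log2 scale, against 0.07 among vehicle libraries. The 10 most abundant genes took 6.69% to 7.0% of the fragments at 1.0 µM, against 4.70% to 4.86% with vehicle. All cells were fibroblasts by label, and 13 of 14 fibroblast markers were tested, with a summed level of 9349.6 to 13544 CPM at 1.0 µM and 11325 to 12374 CPM with vehicle. Of the 13, 7 were lower and 3 higher, with a median of −0.25, and the sum holds Fn1, which was higher, beside Col1a1, Col1a2 and Col3a1, which were lower. The expression filter kept genes near 0.489 CPM or more in 3 libraries of any group, so a member could enter through 1.0 µM alone. Where this touches several members of a list, the counts are also given for those at 0.489 CPM or more in every vehicle library.

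The genes deleted in these cells still gave reads, and the files do not show which part of each gene the reads cover, so their levels do not check the genotype. Maff, on mm9 chr15:79177050-79189506, had 45.7, 34.1 and 35.8 CPM at 1.0 µM, against 3.45, 3.61 and 3.1 CPM with vehicle. Mafk had 8.17, 8.03 and 5.71 CPM at 1.0 µM, against 1.89, 1.25 and 1.19 CPM with vehicle, and Mafg had 0.958, 1.32 and 1.01 CPM, against 0.276, 0.417 and 0.365 CPM with vehicle. The groups overlapped for none of the 3 genes, and the log2 changes were 3.50, 2.33 and 1.62 (SE 0.21, 0.20 and 0.39). Nfe2l1, on mm9 chr11:96678727-96691282, had 322, 294 and 329 CPM at 1.0 µM against 287, 280.2 and 273 CPM with vehicle (log2 change 0.17, SE 0.13, adjusted p = 0.237). Its 3 libraries at 1.0 µM all lay above the 3 with vehicle, but the difference did not pass the test. Among the other genes of Nrf1's handling, Ddi2, the protease that cleaves Nrf1, was higher by 0.41, and Ngly1, the enzyme that strips its sugars, was lower, with a log2 change of −1.26. Keap1, which holds the related factor Nrf2 for degradation, had 19.8, 25.6 and 27.2 CPM at 1.0 µM, against 60.4, 61.3 and 64.7 CPM with vehicle (log2 −1.36, SE 0.09). Bach1, a repressor that also needs a small Maf partner, was higher (1.24). Bulk RNA cannot tell a change in RNA per cell from a change in the share of cells that hold it.

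Cytosolic chaperone genes were mostly higher at 1.0 µM. Hspa1b, an inducible HSP70 on mm9 chr17:35093373-35096183, had 3822, 4577 and 2763 CPM at 1.0 µM, against 23.5, 24.5 and 22 CPM with vehicle. That is a log2 change of 7.32 (SE 0.24, adjusted p = 2.56e-13), and its near-identical neighbour Hspa1a changed by 8.18, so the split of reads between them is uncertain. Hspb1, the small heat shock protein HSP27 on mm9 chr5:136363788-136365433, had 2481, 2496 and 1756 CPM at 1.0 µM, against 19.4, 19.8 and 16.7 CPM with vehicle (log2 6.91, SE 0.24). Dnaja4, a J-domain partner of HSP70 on mm9 chr9:54547365-54564124, had 279, 338 and 218 CPM at 1.0 µM, against 18.8, 19.7 and 19.5 CPM with vehicle (log2 3.85, SE 0.16). In all 3 genes library 3 was the lowest at 1.0 µM, and the groups stood far apart. Heat shock factors bind inverted repeats of GAA, so the 250 bases upstream of each start site were searched for GAANNTTC, a palindrome that reads the same on both strands. RefSeq promoters (GRCm38.p6) were matched for 42 of the 53 tested genes of 5 cytosolic chaperone lists, and 8 of the 42 held a match (19%), against 7.73% of the 27025 genes in the table. The 150 bases upstream of the start are shown for the 3 genes above, 5′ to 3′ on the gene's strand, with matches in capitals: Hspb1 at chr5:135887769-135887918 on the plus strand and Dnaja4 at chr9:54699409-54699558 on the plus strand hold a pair of matches each, and Hspa1b at chr17:34959239-34959388 on the minus strand holds 1. Hspb6, which was lower, also held a match.
Hspb1: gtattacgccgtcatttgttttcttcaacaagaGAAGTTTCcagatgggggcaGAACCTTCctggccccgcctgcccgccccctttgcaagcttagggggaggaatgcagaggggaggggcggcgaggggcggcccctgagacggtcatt
Dnaja4: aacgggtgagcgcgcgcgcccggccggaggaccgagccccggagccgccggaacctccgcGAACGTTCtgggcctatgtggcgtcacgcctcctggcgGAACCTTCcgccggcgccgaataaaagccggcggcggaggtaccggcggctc
Hspa1b: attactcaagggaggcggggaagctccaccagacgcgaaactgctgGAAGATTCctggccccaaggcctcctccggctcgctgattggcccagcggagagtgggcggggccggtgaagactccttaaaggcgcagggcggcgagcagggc

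**Figure D1:**
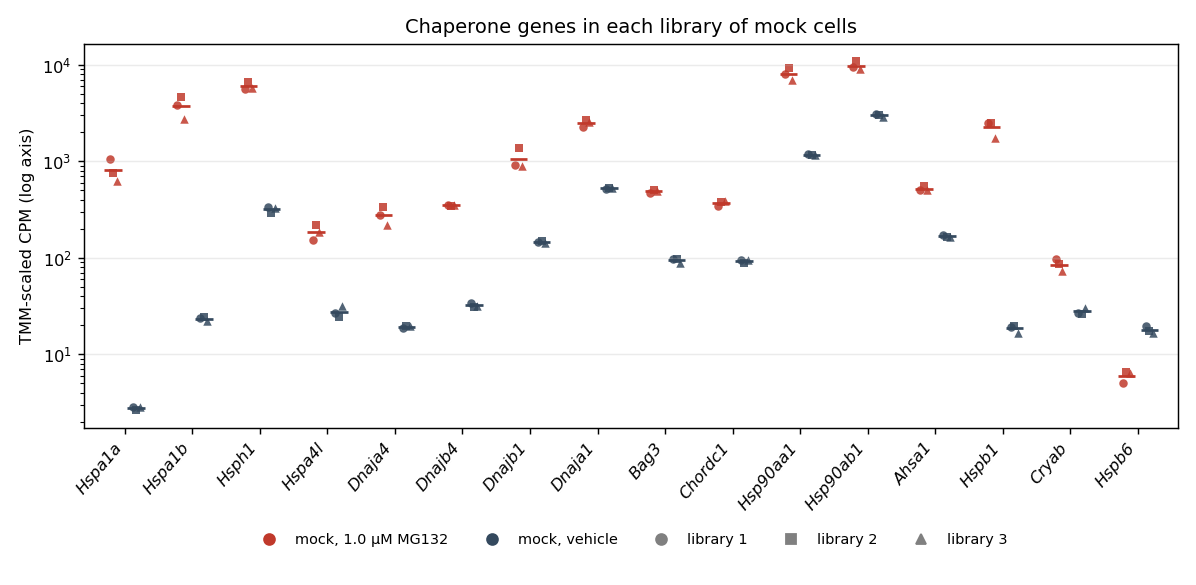
TMM-scaled CPM of 16 chaperone genes in each library of mock cells (log axis), with 1.0 µM MG132 in red and vehicle in blue. Symbols mark libraries 1 to 3 and bars the group means. For 15 genes all libraries at 1.0 µM lie above all vehicle libraries, and for Hspb6 they lie below.

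Within the chaperone families the increase was broad but not uniform. Of 13 HSP70 and HSP110 genes tested 9 were higher, with a median change of 0.61, against −0.04 over all genes. Hspa8, the constitutive HSP70, could not be followed, because the authors' software left it unprocessed in every mock library with MG132. Of 14 J-domain co-chaperones 11 were higher. Dnajb4 stood at 350.3, 346 and 348 CPM at 1.0 µM, against 34, 30.8 and 31.6 CPM with vehicle, and Dnajb1 at 909.6, 1355 and 883 CPM, against 147, 150.1 and 143 CPM with vehicle. The 3 libraries at 1.0 µM were nearly level for Dnajb4, while library 2 was the highest for Dnajb1. The 12 HSP90 genes and co-chaperones included 9 that were higher. Hsp90aa1, the inducible cytosolic HSP90, had 8029, 9229 and 6941 CPM at 1.0 µM, against 1177, 1156 and 1159.5 CPM with vehicle, the largest gain in mean CPM of any gene tested. The HSP90 of the endoplasmic reticulum, Hsp90b1, was not called (0.08), and Trap1, the mitochondrial form, was lower (−0.73). Among nucleotide exchange factors, Bag3, which links HSP70 to autophagy, was higher (2.37), whereas Bag1, Bag2, Bag5 and Bag6 were not called. The TRiC chaperonin, a folding chamber for actin and tubulin, had 9 of 14 subunits and prefoldin partners higher and 2 lower, all but Pfdn5 by less than 2-fold. In mitochondria Hspd1 and its lid Hspe1 were higher (1.57 and 1.85), and the protease gene Htra2 and Clpx were lower (−1.17 and −0.56). The list of mitochondrial chaperones and proteases had no common direction. Of its 11 genes 4 were higher, 3 of them by 2-fold or more, and 4 were lower. Hsf1 itself was slightly lower (−0.32, SE 0.08), a call lost without library 1 at 1.0 µM (−0.18). Hsf2 had 70.6, 87.8 and 66.3 CPM at 1.0 µM, against 37.6, 39.3 and 36.2 CPM with vehicle (log2 0.99, SE 0.09).

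Proteasome subunit genes did not move as a block. The 33 constitutive subunits had a median change of 0.02, which becomes −0.07 with library sizes in place of TMM scaling, with 12 higher and 11 lower. The 20S alpha ring, the outer gate of the core, had 5 of 7 subunits lower and only Psma6 higher (0.49), while the 19S ATPase ring, the motor that unfolds substrates, had 3 of 6 higher, and 5 without the number 3 libraries at 1.0 µM of both lines. Psma4 of the alpha ring had 122, 129.5 and 104 CPM at 1.0 µM, against 202, 220.0 and 199.8 CPM with vehicle (log2 −0.81), and Psmd8 of the 19S lid had 452, 312 and 275 CPM, against 226, 229.8 and 213 CPM with vehicle (log2 0.63). The groups overlapped in neither gene. Among the 8 assembly chaperones 5 were lower, including Pomp, which docks core precursors at membranes (−0.63). Ube3c, a ligase that extends ubiquitin chains at the proteasome, was lower (−0.91), and Akirin2, which carries proteasomes into the nucleus, was higher (0.65). The inducible subunit Psmb8 was higher (2.79), at a mean below 5 CPM over the 6 libraries. Psmb10 was lower (−0.58), a call lost without library 1 or 2 at 1.0 µM (−0.52 and −0.32) and without vehicle library 1 or 2 (−0.52 and −0.48). Of 7 immunoproteasome and antigen transport genes 3 were higher and 1 lower. Of the 5 at 0.489 CPM or more in every vehicle library 2 were higher and 1 lower. The summed level of the 7 was uneven, with 1201.6, 474.0 and 918.4 CPM at 1.0 µM, against 424.1, 376.0 and 383.3 CPM with vehicle.

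Ubiquitin supply and the factors that deliver substrates were raised in part. Ubb, a gene of tandem ubiquitin repeats, had 1430.3, 2447 and 1702 CPM at 1.0 µM, against 263, 323 and 311 CPM with vehicle (log2 2.64, SE 0.19). Of 19 p97 cofactors, ubiquilins and AN1 zinc finger proteins 12 were higher and 6 lower. Zfand2a, also called AIRAP, had 667, 748 and 749.7 CPM at 1.0 µM, against 41.7, 44.3 and 41.5 CPM with vehicle (log2 4.08, SE 0.09). The ubiquilins, shuttles between chaperones and the proteasome, were split, with Ubqln1 higher (1.35) and Ubqln2 lower (−0.73). Rad23b, another shuttle, was higher (0.60). Among 15 ligases 9 were higher. Ubr4, which reads destabilising N-termini, had 692, 388 and 697 CPM at 1.0 µM, against 226, 222 and 242 CPM with vehicle (log2 1.36). Stub1, the ligase that works with HSP70, was lower (−0.78). Autophagy receptors were higher in 7 of 11, among them Optn (1.22), Nbr1 (0.67) and Tax1bp1 (0.80). The machinery that builds autophagosomes had 11 of 26 genes higher and 7 lower. Atg12 and Atg14 led the increases (1.55 and 1.22), and Ulk2 and Atg9a the decreases (−1.74 and −1.01).

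Regulators of the integrated stress response were mostly higher, while Atf4 itself was not called. Atf4 mRNA had 287, 280.0 and 355 CPM at 1.0 µM, against 307, 326 and 302 CPM with vehicle, and these groups overlapped (log2 −0.02, adjusted p = 0.867). Of the 18 regulators and feedback genes 13 were higher and 1 lower, with a median of 0.68. Atf3, a repressor among the earliest targets, on mm9 chr1:192994175-193007212, had 259, 291 and 327 CPM at 1.0 µM, against 4.56, 3.93 and 5.02 CPM with vehicle (log2 6.02, SE 0.12). Trib3, a pseudokinase that restrains the pathway, had 68.5, 75.5 and 101 CPM at 1.0 µM, against 14.9, 16.1 and 12.3 CPM with vehicle (log2 2.50, SE 0.17). Both genes stood far above vehicle in every library. Slc7a11, the cystine importer on mm9 chr3:50168857-50247535, had 52.1, 25.3 and 43.8 CPM at 1.0 µM, against 10, 11.6 and 8.08 CPM with vehicle (log2 2.03, SE 0.27). The site that ATF4 and C/EBP proteins share was searched as TGATGNAA on both strands of the same 250 bases. RefSeq promoters were matched for 44 of 58 tested genes on the lists of ATF4-CHOP regulators, amino acid genes and tRNA synthetases, and 9 held it (20.5%), against 3.91% of all genes in the table. Pycr1, which was lower, was among the 9. Atf3, at chr1:191183334-191183483 on the minus strand (GRCm38.p6), holds 1 match, and Slc7a11, at chr3:50443614-50443763 on the minus strand, holds a facing pair.
Atf3: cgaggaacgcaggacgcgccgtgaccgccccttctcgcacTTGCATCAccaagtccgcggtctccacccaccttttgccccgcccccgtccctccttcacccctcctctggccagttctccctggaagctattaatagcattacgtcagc
Slc7a11: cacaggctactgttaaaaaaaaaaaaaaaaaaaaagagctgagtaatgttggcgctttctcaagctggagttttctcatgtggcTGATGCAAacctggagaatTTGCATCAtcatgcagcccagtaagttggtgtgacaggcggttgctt

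Amino acid genes followed the same direction. Of 20 genes of amino acid synthesis and transport 16 were higher, with a median of 0.61. Slc3a2, the shared heavy chain of several importers, had 722, 537 and 778 CPM at 1.0 µM, against 173, 178 and 162 CPM with vehicle (log2 1.99). Slc7a5, the leucine importer that pairs with it, changed by 0.27, a call lost with library sizes in place of TMM (0.17). Asns, the asparagine synthetase, was higher by 1.04, and Phgdh, the entry to serine synthesis, was not called (0.01). Pycr1, the last step of proline synthesis, was lower (−0.63). Of 20 cytosolic tRNA synthetases 13 were higher and 3 lower. Nars, which charges asparagine tRNA, had 1084, 967 and 881 CPM at 1.0 µM, against 347, 362 and 335 CPM with vehicle (log2 1.49), and Vars, for valine, had 126, 172 and 139 CPM, against 245, 248 and 230.2 CPM with vehicle (log2 −0.72). Neither gene's groups overlapped. Chaperones and quality control genes of the endoplasmic reticulum had no common direction, with 7 of 23 higher and 10 lower. Hspa5, the BiP chaperone, was higher (0.73, SE 0.21), while Pdia4, Pdia6 and Sdf2l1, folding factors of the same organelle, were lower (−0.65, −0.87 and −1.33). Xbp1, the factor of the IRE1 branch, had 41.1, 34.5 and 46.2 CPM at 1.0 µM, against 77.1, 69.7 and 72.7 CPM with vehicle (log2 −0.85), and Ern1, which encodes IRE1, was higher (1.25).

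Redox genes were mostly lower, apart from a few strong exceptions. Hmox1, the haem oxygenase, had 6886, 5093 and 7951 CPM at 1.0 µM, against 1131, 1183 and 1076 CPM with vehicle (log2 2.56, SE 0.18). Of 18 glutathione and thioredoxin genes 11 were lower and 4 higher, with a median of −0.52. The higher ones were Slc7a11, Txnrd1 (1.05), Srxn1 (0.73) and Gclc (0.44). Prdx1, an abundant peroxiredoxin, had 86.6, 77.4 and 70.8 CPM at 1.0 µM, against 201, 222 and 212 CPM with vehicle (log2 −1.44, SE 0.11), and Prdx2 fell to 69.7, 73.3 and 60.4 CPM, against 183, 195 and 179.5 CPM with vehicle (log2 −1.46). All libraries at 1.0 µM lay below all vehicle libraries in both. The enzymes that make NADPH or reduce quinones were lower in 11 of 13, 6 of them by 2-fold or more. G6pdx, which opens the pentose phosphate path, had 24.4, 25.1 and 25.5 CPM at 1.0 µM, against 69, 74.6 and 67.7 CPM with vehicle (log2 −1.49), and Idh1 had 14.7, 20.2 and 17.8 CPM, against 65.3, 73.5 and 72.9 CPM with vehicle (log2 −2.0). Nqo1, a quinone reductase under Nrf2, was lower as well (−1.45), and Me1 was the single gene higher (0.53). In iron and haem handling 11 of 19 genes were lower and 4 higher. The ferritin chains parted, with Fth1 lower (−0.79) and Ftl1 not called (0.14). Slc40a1, the iron exporter, was higher (1.19), and Tfrc, the transferrin receptor that imports iron, was lower (−2.12).

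Immediate-early genes and the feedback genes of the MAP kinase pathway were mostly higher. Of 23 AP-1 and other immediate-early factors 19 were higher, 17 of them by 2-fold or more, and 3 were lower. Fos had 35.4, 17.5 and 23.4 CPM at 1.0 µM, against 3.64, 2.78 and 3.56 CPM with vehicle (log2 2.93, SE 0.26), and Fosb had 24.6, 15.3 and 10.7 CPM, against 1.43, 1.34 and 1.64 CPM with vehicle (log2 3.51, SE 0.46). Library 1 was the highest at 1.0 µM in both. Jun, their partner in AP-1, was steadier, with 269, 246 and 255 CPM at 1.0 µM, against 98.2, 94.8 and 99.7 CPM with vehicle (log2 1.40, SE 0.07), and Jund changed by 0.24, a call lost with library sizes in place of TMM (0.15). Myc was higher by 1.25 (SE 0.18). Klf2 and Klf10 were lower (−1.06 and −0.63), whereas Klf4 and Klf6 were higher (1.42 and 1.59). Of 16 MAP kinase phosphatases and Sprouty or Spred inhibitors, genes that damp the pathway, 13 were higher, with a median of 1.57. Dusp1 had 358, 275 and 340.0 CPM at 1.0 µM, against 42.4, 36.8 and 41.3 CPM with vehicle, Dusp4 had 458, 322 and 353 CPM, against 43.4, 40.8 and 43.1 CPM with vehicle, and Dusp6 had 64.8, 46 and 52.2 CPM, against 9.49, 8.93 and 9.86 CPM with vehicle. Their log2 changes were 3.01, 3.15 and 2.53 (SE 0.12, 0.16 and 0.16), with no overlap of the groups. Spry2 and Spry4 were higher (1.67 and 1.55), and Spry1 was lower, with 21.9, 18.3 and 24.1 CPM at 1.0 µM against 51.1, 47 and 52.8 CPM with vehicle (log2 −1.23).

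Secreted growth factors were mostly higher. Of 23 tested 19 were higher and 2 lower, 12 of the increases by 2-fold or more and with a median of 1.63. Of the 17 at 0.489 CPM or more in every vehicle library 13 were higher and 2 lower, with a median of 0.84. Among ligands of the EGF receptor, Hbegf had 286, 131 and 175 CPM at 1.0 µM, against 33.1, 25.9 and 26.9 CPM with vehicle (log2 2.78, SE 0.29). Tgfa had 27.1, 32.1 and 27.8 CPM at 1.0 µM, against 5.2, 4.86 and 5.48 CPM with vehicle (log2 2.48, SE 0.17). The groups did not overlap in either, and Areg, Ereg and Btc were higher from levels below 1 CPM in every vehicle library. Vegfa, the main angiogenic factor, had 138, 61 and 80.5 CPM at 1.0 µM, against 15.2, 14.7 and 15.2 CPM with vehicle (log2 2.63, SE 0.32). Gdf15, a stress-induced cytokine, was higher by 2.26 and Inhba, the activin A subunit, by 2.55. Igf1 and Vegfb were the ones lower (−0.86 and −1.10). Receptors had no common direction, with 7 of 19 higher and 8 lower. Egfr was higher, with 186, 84.9 and 144 CPM at 1.0 µM against 63.1, 54.5 and 65 CPM with vehicle (log2 1.18, SE 0.25). Pdgfrb, the PDGF receptor that marks fibroblasts, was lower, with 11.2, 14.5 and 17.9 CPM at 1.0 µM against 61.5, 55.3 and 60.1 CPM with vehicle (log2 −2.02, SE 0.19), and Pdgfra was not called (0.06). Kdr, a VEGF receptor and a marker of endothelium, had 85.2, 62.3 and 66.9 CPM at 1.0 µM, against 5.67, 5.69 and 5.29 CPM with vehicle (log2 3.68). Of the other endothelial markers Cdh5 was higher, with 52 fragments at 1.0 µM and 4 with vehicle, and Pecam1 and Tek were not called, and the summed level of the list was 63.4 to 87.0 CPM at 1.0 µM and 6.0 to 6.8 CPM with vehicle. The part of another cell type in this rise was not tested.

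Interferon-stimulated genes were higher, and unevenly so between libraries. Of 18 tested 14 were higher, each by 2-fold or more, with a median of 2.83. Of the 14 at 0.489 CPM or more in every vehicle library 10 were higher, with a median of 2.53. The number lower was 0, also at an unadjusted p under 0.05 in edgeR and with DESeq2. Usp18, the protease that removes ISG15 and damps interferon signalling, had 33, 5.7 and 54.6 CPM at 1.0 µM, against 1.01, 0.555 and 0.593 CPM with vehicle (log2 5.42, SE 1.02, adjusted p = 3.15e-04, and log2 4.73 without library 3 at 1.0 µM). Isg15, the ubiquitin-like modifier on mm9 chr4:155573532-155574927, had 20.1, 6.86 and 27.2 CPM at 1.0 µM, against 2.9, 1.85 and 1.92 CPM with vehicle (log2 3.02, SE 0.61). Rsad2, the antiviral enzyme viperin on mm9 chr12:27127607-27141317, had 28.5, 16.6 and 67.8 CPM at 1.0 µM, against 2.16, 1.99 and 1.19 CPM with vehicle (log2 4.40, SE 0.72, and log2 3.65 without library 3 at 1.0 µM). In all 14 genes library 2 was the lowest at 1.0 µM and still above every vehicle library, and in 13 of 14 library 3 was the highest. The median ratio of library 3 to library 2 was 4.71 over the 14 genes. Leaving out library 1, 2 or 3 at 1.0 µM gave 14, 16 and 13 called genes, with list medians of 2.93, 3.28 and 2.44. Irf9, a subunit of the factor that reads interferon signals, had 79.4, 30.6 and 104 CPM at 1.0 µM, against 15, 11.8 and 13 CPM with vehicle, and its partner Stat2 was higher too (1.15), a call lost without library 3 at 1.0 µM (0.68). Irf1, Ifit2 and Ifit3 were not called. Mx1 had no fragment in any vehicle library and 122 over the 3 at 1.0 µM, at least 46.1-fold higher against a floor of 3 fragments over the vehicle group. The interferon genes themselves, looked at after the values above were seen, gave 12 fragments at 1.0 µM and 4 with vehicle over 21 genes. For 16 of the 21, Ifnb1 among them, no library of either group held a fragment, which allows up to 3 fragments per group.

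The site bound by the factor that holds Stat2 and Irf9 repeats TTTC, and TTTC, any 2 bases and TTTC again was searched on both strands of the 250 upstream bases. RefSeq promoters were matched for 14 of the 18 genes, and 8 held it (57.1%), against 3.46% of all genes in the table. They were Isg15, Cxcl10, Oas1a, Bst2, Stat2, Rsad2, Ifit1 and Ifit3. Isg15, at chr4:156200819-156200968 on the minus strand (GRCm38.p6), holds 3 overlapping matches on the opposite strand, and Rsad2, at chr12:26456453-26456602 on the minus strand, holds 1.
Isg15: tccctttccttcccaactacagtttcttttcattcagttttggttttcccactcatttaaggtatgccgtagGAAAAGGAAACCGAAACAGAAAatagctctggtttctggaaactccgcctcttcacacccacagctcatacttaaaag
Rsad2: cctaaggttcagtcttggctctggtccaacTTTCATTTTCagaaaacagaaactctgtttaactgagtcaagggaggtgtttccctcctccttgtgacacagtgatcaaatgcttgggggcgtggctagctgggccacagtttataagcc

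**Figure D2:**
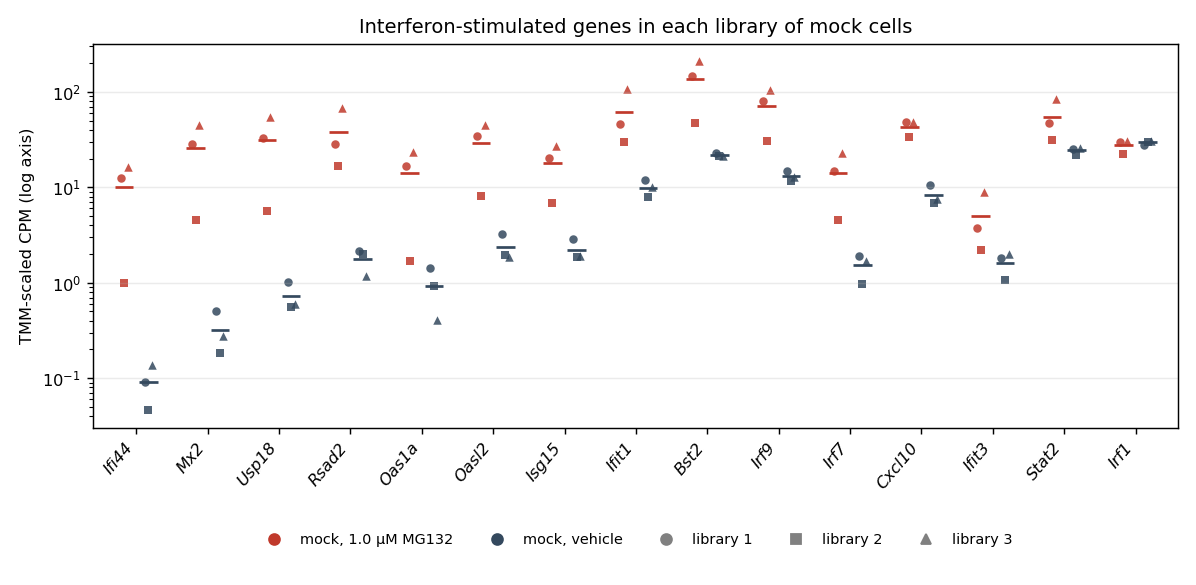
TMM-scaled CPM of 15 of the 18 interferon-stimulated genes in each library of mock cells (log axis), with 1.0 µM MG132 in red and vehicle in blue. Mx1, at 0 with vehicle, is among those not drawn. Squares mark library 2, which is the lowest of the 3 libraries at 1.0 µM in every gene called higher.

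NF-kB genes and inflammatory mediators gave a mixed picture. Of 16 NF-kB subunits and feedback genes 8 were higher and 3 lower, with a median of 0.18, and 5 were lower without library 3 at 1.0 µM. Nfkbiz, a nuclear co-activator, had 83, 64.7 and 68.7 CPM at 1.0 µM, against 8.66, 6.25 and 6.48 CPM with vehicle (log2 3.34, SE 0.17). Nfkbia, the inhibitor that NF-kB induces against itself, was lower, with 29.9, 19.6 and 24.3 CPM at 1.0 µM against 40.6, 41.5 and 39.9 CPM with vehicle (log2 −0.73). Birc2, a ligase of the same pathway, was lower (−0.65), and Relb and Rela were higher (1.24 and 0.71). Of 18 cytokines, chemokines and prostaglandin enzymes tested, 12 had 0.489 CPM or more in every vehicle library, and of these 7 were higher and 3 lower. Il6 had 17.9, 6.92 and 15.3 CPM at 1.0 µM, against 0.138, 0.185 and 0.0913 CPM with vehicle (log2 6.54, SE 0.64). Both cyclooxygenases were higher, Ptgs2 by 3.86 and Ptgs1 by 2.22. The chemokines split, with Cxcl1, Ccl5 and Cxcl10 higher (1.37, 1.62 and 2.38), Ccl7 and Cxcl12 lower (−0.55 and −0.41) and Ccl2 not called (−0.09). Of 9 leukocyte markers 3 were tested and 3 had no fragment in any of the 6 libraries. All 3 tested were called higher, 2 of them by 2-fold or more, and 1 was with library sizes in place of TMM. Only 1 of them had 0.489 CPM or more in every vehicle library (log2 0.49). The summed level of the list was 4.7 to 4.8 CPM at 1.0 µM and 2.6 to 3.0 CPM with vehicle. The part of leukocytes in these calls was not tested.

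Cell death genes changed in both directions. Pmaip1, which encodes the BH3-only protein NOXA, had 1044, 916 and 758 CPM at 1.0 µM, against 97.6, 93.9 and 101 CPM with vehicle (log2 3.22, SE 0.13), and Bcl2l11, which encodes BIM, had 109, 81.4 and 75.1 CPM, against 15.9, 16.8 and 17.8 CPM with vehicle (log2 2.39). The effector Bak1 and the BH3-only gene Bad were lower (−0.96 and −0.94), as were Bok, Bbc3 and Bax by smaller amounts. Mcl1, the anti-apoptotic partner of NOXA, was higher by 0.44, and Bcl2l1 was not called. Of 17 death receptors, caspases and inhibitors 5 were higher and 6 lower, near the shares over all genes. Casp4 rose most (3.63, and 2.85 without library 3 at 1.0 µM), while Apaf1 and Casp6 were lower (−0.79 and −0.93). Trp53 was higher, with 354, 374 and 347 CPM at 1.0 µM against 249, 263 and 238 CPM with vehicle (log2 0.52). Its targets had no common direction, with 8 of 20 higher and 5 lower. Gadd45a and Mdm2 were higher (3.32 and 0.87), Ccng1 and Zmat3 were lower (−1.79 and −1.36), and Cdkn1a, which encodes p21, was not called.

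In the cell cycle, replication genes and mitotic genes parted. Of 28 DNA replication and G1/S genes 16 were higher and 8 lower, and all 6 subunits of the MCM helicase were higher, by 0.22 to 0.86. Mcm5 had 666, 645 and 484 CPM at 1.0 µM, against 326, 343 and 318 CPM with vehicle (log2 0.86). With library sizes in place of TMM scaling 5 of the 6 were called higher. The D-type cyclins were lower, Ccnd1 most, with 108, 157 and 94.4 CPM at 1.0 µM against 357, 358 and 359.6 CPM with vehicle (log2 −1.58), followed by Ccnd2 and Ccnd3 (−1.13 and −0.83). Tk1 was lower as well (−2.0). Of 27 mitotic and G2/M genes 23 were lower, 12 of them by 2-fold or more, and 1 was higher. Ube2c, the conjugating enzyme of the anaphase-promoting complex, had 49, 53.4 and 49.8 CPM at 1.0 µM, against 175, 167 and 182 CPM with vehicle (log2 −1.79, SE 0.11). Ccnb2, a mitotic cyclin, was lower (−1.37), and Cenpf was the member that was higher (0.36). Foxm1, the factor that drives many of them, was not called (0.07). CDK inhibitors were lower in 6 of 7. Cdkn2c had 19.5, 20.9 and 17.3 CPM at 1.0 µM, against 57.6, 53.9 and 57.6 CPM with vehicle (log2 −1.55), and Cdkn1b, which encodes p27, had 46.6, 41.5 and 37.7 CPM, against 60.3, 64.7 and 70.8 CPM with vehicle (log2 −0.64).

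Genes of oxidative phosphorylation, the mitochondrial chain that makes ATP, were mostly lower. Of 69 genes tested 60 were lower, 28 of them by 2-fold or more, with a median of −0.91. The number higher was 0, also at an unadjusted p under 0.05 in edgeR and with DESeq2. Complex I, which takes electrons from NADH, had 32 of 34 lower (median −0.91), and complex II, the succinate dehydrogenase, had 4 of 4 lower (median −1.02). Complex III had 8 of 9 lower (median −0.62), complex IV 7 of 10 (median −0.71) and complex V, the ATP synthase, 9 of 12 (median −0.81). Cox7b, a small subunit of complex IV, had 24.3, 22.8 and 19.8 CPM at 1.0 µM, against 115, 131 and 125 CPM with vehicle (log2 −2.47, SE 0.13), and Ndufa3 of complex I had 7.72, 8.13 and 7.58 CPM, against 24.9, 25.2 and 27.4 CPM with vehicle (log2 −1.72). Sdhc had 21.9, 21.5 and 22.5 CPM at 1.0 µM, against 56, 61.4 and 56.4 CPM with vehicle (log2 −1.40). The groups overlapped in none of these 3 genes. Ndufs5 was not called, with 0, 1.48 and 4.41 CPM at 1.0 µM and no fragment in any vehicle library. With library sizes or relative log expression in place of TMM scaling 65 and 57 of the 69 genes were lower. Leaving out library 3 at 1.0 µM left 58 lower and 1 higher.

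**Figure D3:**
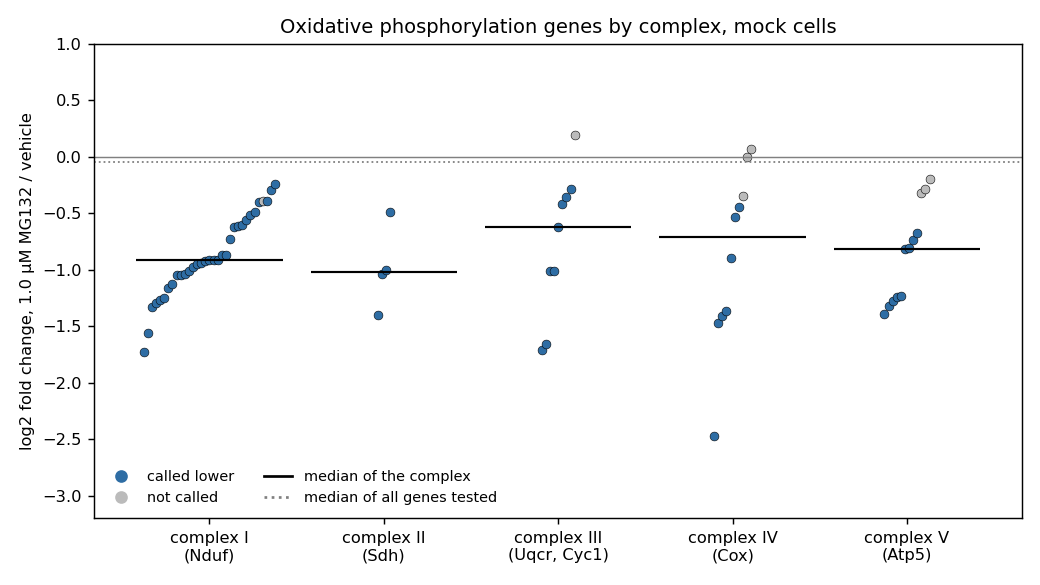
Log2 fold changes (1.0 µM MG132 over vehicle) of oxidative phosphorylation genes in mock cells by complex, with a bar at each complex's median. Ndufs5, not called and at 0 with vehicle, lies above the axis and is not drawn; nearly all other points lie below 0, and those called are blue.

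Of 77 mitochondrial ribosomal proteins 47 were lower, 16 of them by 2-fold or more, and 17 higher. Mrps21 had 8.96, 7.97 and 7.68 CPM at 1.0 µM, against 34.7, 37.4 and 36.2 CPM with vehicle (log2 −2.14), whereas Mrpl1 was higher (0.71). Cytosolic ribosomal proteins had 30 of 80 lower and 16 higher, close to the 37.4% of all genes that were lower, and 32 were higher without the number 3 libraries at 1.0 µM of both lines. Rpl37a had 70.7, 75 and 65.6 CPM at 1.0 µM, against 203, 224 and 204 CPM with vehicle (log2 −1.58). Rpl26 was called higher, but the libraries were far apart, with 9.3, 11.6 and 58.8 CPM at 1.0 µM against 2.21, 2.27 and 2.19 CPM with vehicle, and the call was lost without library 3 (log2 2.23, adjusted p = 0.0978). Ribosome biogenesis factors were higher in 14 of 23. Nop14, Rrp9 and Nop58, factors that process ribosomal RNA, had the largest increases of the list (1.24, 1.03 and 1.0).

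Glycolysis and lipid synthesis were mostly lower. Of 21 glycolytic genes 15 were lower and 3 higher, with a median of −0.55. Ldha, the lactate dehydrogenase, had 184, 218 and 174 CPM at 1.0 µM, against 568, 569.5 and 578 CPM with vehicle (log2 −1.58, SE 0.09), and Pfkm, a phosphofructokinase, was lower (−1.71). Hk2, the inducible hexokinase, ran the other way, with 145, 95.9 and 145 CPM at 1.0 µM against 52, 48.8 and 48.3 CPM with vehicle (log2 1.37), as did Pfkfb3 (1.02) and Pfkp (0.30). Of 13 genes of fatty acid synthesis 8 were lower and 2 higher. Scd2, a stearoyl-CoA desaturase, had 211, 419 and 413 CPM at 1.0 µM, against 1662, 2004 and 1877 CPM with vehicle (log2 −2.41, SE 0.32), and Elovl6, an elongase, was lower (−2.03). Srebf1, a factor that drives these genes, was not called (−0.09). In cholesterol synthesis and uptake 19 of 25 genes were lower.

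**Figure D4:**
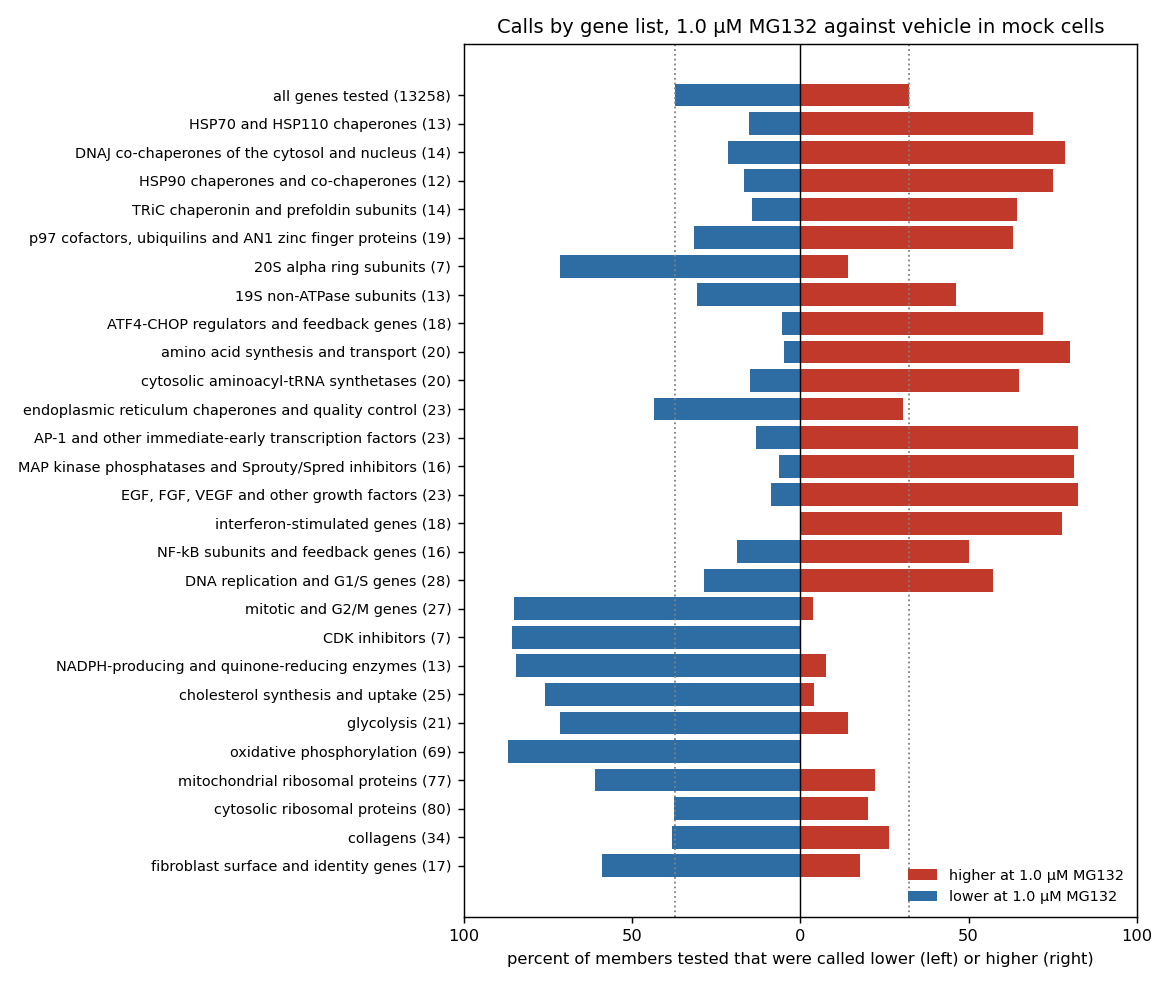
Percent of the members tested of selected gene lists that were called lower (left, blue) or higher (right, red) in mock cells at 1.0 µM MG132 against vehicle, with the number tested in brackets. Dotted lines mark the shares over all 13258 genes, 37.4% lower and 32.4% higher. Lists of cell type markers and keratins are not drawn. Of the lists drawn, oxidative phosphorylation and CDK inhibitors have a bar on the lower side alone.

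Matrix genes changed in both directions. Of 34 collagens tested 9 were higher and 13 lower, near the shares over all genes. Of the 25 at 0.489 CPM or more in every vehicle library 6 were higher and 13 lower. The fibrillar collagens fell, Col1a1 to 1179.7, 1215 and 1237 CPM at 1.0 µM against 2853, 2694 and 2512 CPM with vehicle (log2 −1.15), Col1a2 to 771, 1177 and 977 CPM against 3018, 2879.5 and 2828 CPM with vehicle (log2 −1.58), and Col3a1 was lower too (log2 −1.68). Col7a1 and Col27a1 were higher (1.77 and 2.11), as was Col17a1 from a low level. Fibronectin, Fn1, had 8507, 3831 and 8309 CPM at 1.0 µM, against 2109.9, 1817 and 1943 CPM with vehicle (log2 1.81, SE 0.21). Tenascin C, Tnc, had 919, 313 and 987 CPM at 1.0 µM, against 194, 149.7 and 158 CPM with vehicle (log2 2.14). Library 2 was the lowest at 1.0 µM in both, and still above every vehicle library. The small proteoglycans Ogn and Fmod were lower (−2.85 and −2.87), and so were the cross-linking enzymes Loxl1 and Loxl3 (−2.06 and −1.51), while Lox was not called. P4ha2, which hydroxylates collagen, was higher (1.68).

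Secreted proteases and their regulators changed in both directions. Of 15 matrix metalloproteinases tested 6 were higher and 4 lower. Of the 9 at 0.489 CPM or more in every vehicle library 2 were higher and 4 lower, with a median of −0.01. Mmp13 and Mmp10 were not among the 9. Mmp13, a collagenase, had 705 fragments over the 3 libraries at 1.0 µM and 3 over the vehicle libraries, 266.5-fold with a 95% counting interval of 90.8 to 1295. Mmp10 had 729 fragments at 1.0 µM and none with vehicle, at least 275.5-fold higher against the floor of 3 fragments over the group. Mmp9 had 42.3, 4.49 and 32.2 CPM at 1.0 µM, against 1.89, 1.34 and 0.958 CPM with vehicle (log2 4.23), with library 2 the lowest. Mmp14, the membrane protease that activates others, was lower (−0.74), as was Mmp11 (−1.17). ADAMTS proteases and TIMPs had 7 of 20 genes higher and 7 lower, near the shares over all genes (32.4% and 37.4%), and 4 higher without vehicle library 2. Of the 16 at 0.489 CPM or more in every vehicle library 4 were higher and 7 lower. Adamts5 had 42.3, 39.3 and 42.7 CPM at 1.0 µM, against 214, 239.8 and 240.0 CPM with vehicle (log2 −2.48), and Adamts6 was higher (3.14). In the plasminogen system 7 of 11 genes were higher. Plaur, the urokinase receptor, had 156, 104 and 107 CPM at 1.0 µM, against 23.6, 22.6 and 23 CPM with vehicle (log2 2.41), and Serpinb2, a urokinase inhibitor, changed by 7.55.

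Markers of fibroblast identity were lower in 10 of 17 and higher in 3. Without library 1 at 1.0 µM or without vehicle library 3 only 6 were lower, and without library 3 at 1.0 µM 1 was higher. S100a4 had 9.86, 21.7 and 9.07 CPM at 1.0 µM, against 192, 209 and 212 CPM with vehicle (log2 −3.92, SE 0.34), and Tmem119 had 9.75, 8.66 and 10.3 CPM, against 119, 109.7 and 106 CPM with vehicle (log2 −3.54). Cd248, a stromal surface protein also called endosialin, was lower (−3.11), while Thy1 was higher (0.39), a call lost without library 1 or 3 at 1.0 µM (0.39 and 0.31) and without vehicle library 3 (0.42), and Fap was not called. Of the cytoskeletal genes, Actb had 3852, 3953 and 4069.9 CPM at 1.0 µM, against 7359, 7159 and 6849.9 CPM with vehicle (log2 −0.85), the largest loss in mean CPM of any gene tested, and Tagln, a smooth muscle actin-binding protein, was lower (−1.22). Ctgf, a target of YAP, went the other way, with 3379, 874 and 1184 CPM at 1.0 µM against 302, 242 and 261 CPM with vehicle (log2 2.76, and 2.0 without library 1 at 1.0 µM), library 1 being the highest. Tubulins were lower in 6 of 13, Tubb4b most (−1.74), and Tubb3 was higher (1.14).

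Some genes of epithelia were higher from low levels. Of 52 keratin genes listed 13 passed the expression filter, and of 94 keratin-associated and cornified envelope genes 8 did, which a gene can do through its level at 1.0 µM alone, so no count over them is given. Krt16 had 13.6, 9.66 and 14.5 CPM at 1.0 µM, against 0.368, 0.139 and 0.228 CPM with vehicle, and Krt8, of simple epithelia, had 6.54, 6.55 and 11.1 CPM, against 0.322, 0.324 and 0.137 CPM with vehicle. Krt14 stood higher at baseline, with 65.8, 53 and 33.2 CPM at 1.0 µM against 18.7, 19.3 and 16 CPM with vehicle (log2 1.49). Sprr1a, a cornified envelope precursor, had 24.7, 48.4 and 35.4 CPM at 1.0 µM, against 2.16, 2.45 and 2.92 CPM with vehicle (log2 3.84). Krtap4-16, a hair keratin-associated protein gene, had 923 fragments at 1.0 µM and none with vehicle, at least 348.9-fold higher. The defining epithelial marker Cdh1, E-cadherin, had 0.789, 0.634 and 1.1 CPM at 1.0 µM, against 0.553, 0.602 and 0.548 CPM with vehicle, and was not called (log2 0.57, adjusted p = 0.175). Another, Cldn4, had 130 fragments at 1.0 µM and none with vehicle, at least 49.1-fold higher. Over the epithelial markers the summed level was 334.2 to 483.7 CPM at 1.0 µM and 204.8 to 212.1 CPM with vehicle. The part of epithelial cells in these rises was not tested.

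Among the genes of largest change outside these lists, Tbc1d9, a Rab GTPase-activating protein, had 127, 89.9 and 104 CPM at 1.0 µM, against 5.11, 6.02 and 5.25 CPM with vehicle (log2 4.29, SE 0.16). Procr, the endothelial protein C receptor, had 160.0, 61.9 and 63.4 CPM at 1.0 µM, against 8.89, 7.27 and 5.61 CPM with vehicle (log2 3.71), with library 1 the highest. Nabp1, a single-stranded DNA-binding protein, was higher by 3.60, Gjb2, which encodes connexin 26, by 3.59, and Clu, the extracellular chaperone clusterin, by 3.45. Aldh1a1, a retinal dehydrogenase, fell the most of the genes with a mean of at least 5 CPM in vehicle cells, with 0.564, 0.634 and 0.432 CPM at 1.0 µM against 17.2, 15 and 10.9 CPM with vehicle (log2 −4.72, SE 0.24). Ptn, the growth factor pleiotrophin, was lower, with 29.8, 61.8 and 70.2 CPM at 1.0 µM against 300.2, 359.6 and 464 CPM with vehicle (log2 −2.79), and H1f0, a linker histone, was lower (−2.74). Oaz1-ps, a pseudogene whose reads may belong to its parent, had 0, 0 and 34.1 CPM at 1.0 µM, against 224, 257 and 240.0 CPM with vehicle. Genes with at most 3 vehicle fragments included Nts, which encodes neurotensin, with 408 fragments at 1.0 µM and 1 with vehicle, and the transcription factors Prdm1 and Grhl2, with 341 and 278 fragments at 1.0 µM and 2 each with vehicle.

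The lower dose places these changes on a series. Both doses were set against the same vehicle libraries, so their values are given side by side. At 0.3 µM 53.1% of genes were called against vehicle, 25.0% higher and 28.1% lower, with 4.61% higher and 6.13% lower by 2-fold or more. The fit took its spread from all 18 libraries, so calls at 0.3 µM also depend on the more scattered libraries at 1.0 µM. Leaving out the number 3 libraries at 1.0 µM of both lines gave 7647 genes called at 0.3 µM, against 7040 with them. Mock cells at 0.3 µM and with vehicle were not fitted alone. Tested directly, 1.0 µM differed from 0.3 µM in 49.6% of genes, 21.8% higher and 27.8% lower. Hspb1 changed by 4.18 at 0.3 µM and 6.91 at 1.0 µM, Atf3 by 4.44 and 6.02, and Usp18, not called at 0.3 µM, had log2 values of 0.94 and 5.42. Interferon-stimulated genes had a list median of 0.76 at 0.3 µM and 2.83 at 1.0 µM, and 14 were higher and 1 lower at 1.0 µM than at 0.3 µM. Without library 3 at 1.0 µM 6 were higher, and without library 2 at 0.3 µM 9 were higher. Growth factors had medians of 0.38 and 1.63, and oxidative phosphorylation genes of −0.45 and −0.91, with 43 of 69 lower at the higher dose. The growth factor and interferon lists hold members that could pass the filter through 1.0 µM alone. At 1.0 µM the 17 growth factors at 0.489 CPM or more in every vehicle library had a median of 0.84. The 14 such interferon-stimulated genes had a median of 2.53. Medians over these members were not computed at 0.3 µM, nor were calls between the doses counted over them. Mitotic genes had medians of −0.42 and −0.97, and 22 of 27 were lower at the higher dose. Some genes did not follow the dose. Egr1, an immediate-early factor, had 48.1, 39.3 and 52.5 CPM with vehicle, 18.4, 11.1 and 19.9 CPM at 0.3 µM and 241, 111 and 169 CPM at 1.0 µM. Ddit3, which encodes CHOP, was higher at 0.3 µM (2.20) than at 1.0 µM (1.88), and the direct difference was called (−0.33), but not without library 2 at 1.0 µM (−0.18). Nfkbia was higher at 0.3 µM (0.70) and lower at 1.0 µM (−0.73), and Ccl2 was higher at 0.3 µM (1.38) and not called at 1.0 µM. Hyou1, a chaperone of the endoplasmic reticulum, was higher at 0.3 µM only among these comparisons with vehicle (0.54), and 1.0 µM was lower than 0.3 µM (−0.53).

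The response of mock cells was last set against that of T-N1G cells, which asks which responses differ where a tethered heterodimer is supplied. A higher response here is a larger log2 change, whether a bigger increase or a smaller decrease. The difference, mock response minus T-N1G response, was called for 45.0% of genes, 22.1% with a higher and 22.9% with a lower response in mock cells. In T-N1G cells 76.4% of genes were called against vehicle. Of the 33 constitutive proteasome subunits 31 had a lower response in mock cells. The number with a higher response was 0, also at an unadjusted p under 0.05 in edgeR and with DESeq2. The alpha ring had medians of −0.51 in mock cells and 1.18 in T-N1G cells. Nfe2l1, whose T-N1G reads may come from the construct, had log2 values of 0.17 in mock cells, where it was not called, and 3.95 in T-N1G cells, and these sources cannot be told apart. The response of glutathione and thioredoxin genes was lower in mock cells in 11 of 18, and that of mitochondrial ribosomal proteins in 41 of 77. Of 69 oxidative phosphorylation genes 19 had a lower response, near the 22.9% of all genes, and 29 did without library 3 of T-N1G cells at 1.0 µM. Fam13a differed most in that direction, with 1.13, 1.64 and 1.92 CPM at 1.0 µM and 3.36, 3.01 and 3.42 CPM with vehicle in mock cells, against 91, 79.4 and 99.5 CPM at 1.0 µM and 5.33, 4.14 and 4.56 CPM with vehicle in T-N1G cells (difference −5.31, SE 0.22).

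Other groups had a higher response in mock cells. Growth factors did so in 11 of 23, and Hedgehog, Wnt and Notch genes in 11 of 22. Of these, 17 growth factors and 19 pathway genes had 0.489 CPM or more in every mock vehicle library. Differences were not counted over them alone, and the others could pass the filter through 1.0 µM. DNA replication genes had 14 of 28 with a higher response, Hox genes 16 of 31 and cytoskeletal and YAP target genes 13 of 20. Inhbb, the inhibin beta B chain, had 25.4, 18.8 and 41.2 CPM at 1.0 µM and 21.6, 15.7 and 15.7 CPM with vehicle in mock cells, against 4.11, 2.93 and 7.86 CPM at 1.0 µM and 30.1, 24.8 and 19.3 CPM with vehicle in T-N1G cells (difference 3.0, SE 0.46). Egfr changed by 1.18 in mock cells and −0.61 in T-N1G cells (difference 1.80, SE 0.35). Pmaip1 and Hmox1 also had a higher response in mock cells, with differences of 1.59 and 1.15. Among the 18 interferon-stimulated genes edgeR called 0 differences (0 at an unadjusted p under 0.05, 1 with DESeq2 and 2 with the replicate number as a block), and the medians were 2.83 in mock cells and 2.24 in T-N1G cells. Without library 2 of mock cells at 1.0 µM 4 had a higher response in mock cells, and without library 3 of T-N1G cells at 1.0 µM 7 did. The difference for Hspb1 was −0.03 (SE 0.27) and was not called. Cox7b changed by −2.47 in mock cells and −2.62 in T-N1G cells (difference 0.15, SE 0.17, not called).

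**Figure D5:**
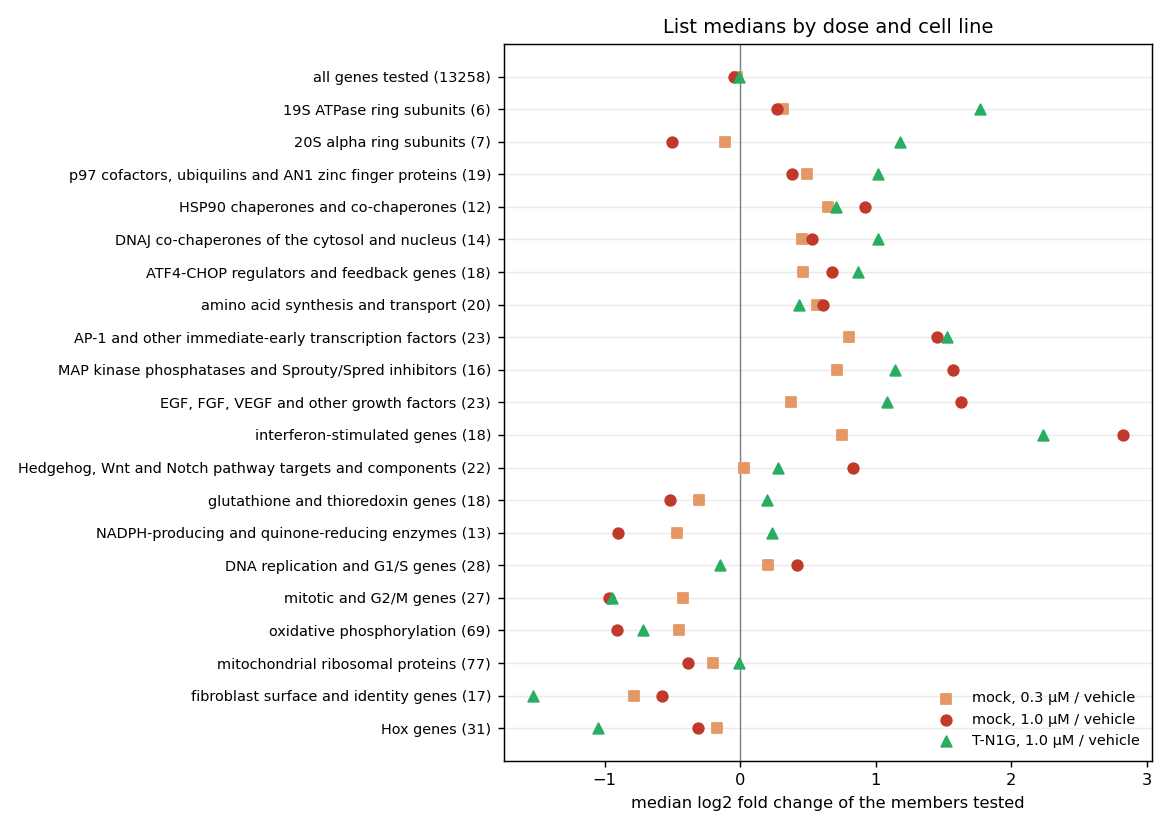
Median log2 fold changes over vehicle of the members tested of selected gene lists, for mock cells at 0.3 µM (squares) and 1.0 µM (circles) and T-N1G cells at 1.0 µM (triangles). Proteasome lists lie to the right for T-N1G cells, and growth factor and replication lists lie further right for mock cells at 1.0 µM. Some lists, growth factors among them, hold members below 0.489 CPM with vehicle.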

How the data were processed

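Poly(A) RNA of the fibroblasts was sequenced as strand-specific libraries, per the labels' protocols. Reads were converted with bcl2fastq 2.16.0.10, aligned to mm9 with TopHat2 2.0.8b and summarised with Cuffdiff 2.1.1, per the submitters' processing notes. Neither the labels nor the headers name the annotation or the strand setting. The deposited table holds estimated counts of fragments per gene and library, which the authors' software assigns in part between overlapping transcripts, and FPKM values with a status for each gene. Between 98.16% and 98.51% of the estimated counts were whole within 1e-06. The deposited FPKM values were used here only to mark the 20 genes with a failed estimate in some library. The 2 genes left unprocessed for too many reads, Hspa8 among them, were taken out of all libraries. The table numbers its libraries from 0, and these numbers were read as the labels' replicates 1 to 3, a link that no label or header states. Its conditions were read as T-N1G (N1), 0.3 µM (L-MG) and 1.0 µM (H-MG) MG132 from the titles, since the table spells none of them out.

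Counts were rounded to whole numbers and fitted with edgeR 4.0.16 in R 4.3.3, with group means for all 18 libraries, TMM scaling, filterByExpr by group and the robust quasi-likelihood F test. An SE is the log2 fold change divided by the square root of F. Log2 CPM for the spread between libraries used a prior count of 2. Alternatives were DESeq2 1.42.0, other scalings, no filter, the compared groups alone, the replicate number as a block and each library left out. The number 3 libraries at 1.0 µM of both lines were also left out together, a choice made after seeing the data. On simulated counts for 1.0 µM against vehicle in mock cells, 68.7% of 67 genes changed by 1.5-fold, 73.1% of 67 changed by 2-fold and 90.9% of 66 changed by 4-fold were recovered among 13258 genes, and 9 unchanged genes were called. The simulation changed no other genes and gave every group the same spread. In the data 69.7% of genes were called, and the median SD was 0.19 at 1.0 µM against 0.07 with vehicle. The simulation therefore cannot give the rate of false calls or the effect of scaling in these data. Libraries of a group differed by more than counting noise, so none was taken for a copy of another. Deviations from the group means of libraries with the same label number correlated at 0.191, 0.251 and 0.104 between 1.0 µM and vehicle in mock cells. Each was over 0.1, the rule for reading the numbers as pairs, but unlike numbers were not compared, so pairing was not established. The values printed come from a fit without pairing unless the block is named. The same correlations were 0.553, 0.626 and 0.77 between mock and T-N1G cells at 1.0 µM, and 0.121, 0.097 and −0.141 between 1.0 µM and vehicle in T-N1G cells, where the rule was not met. Floors and counting intervals (95%, exact) cover counting error only.

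Genes were named by rule: the largest called changes with a mean of at least 5 CPM, the largest gains and losses in CPM, the most abundant genes with at most 3 vehicle fragments, called list members, Nfe2l1 and the small Maf genes, and the largest differences from T-N1G cells. The comparison, the rule and the 74 gene lists (67 without those of cell type markers) were chosen with earlier results of these data known. A few list members are not reported here by name. Gene positions are those of the deposited table.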

Additional observations from a re-analysis of the deposited data

Results flagged for a closer look

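For 6 genes the response to 1.0 µM MG132 differed between the lines by a test of the difference itself, and each was among the 3 largest such differences in its direction by the naming rule. Inhbb (3.00), Cldn1 (2.99) and Plekha6 (2.84) had a higher log2 response in mock cells than in T-N1G cells. Cldn1, a tight junction protein, had 11.5, 40 and 33.5 CPM at 1.0 µM and 15.7, 19.3 and 24.1 CPM with vehicle in mock cells, and its log2 change in T-N1G cells was −2.47. Its mock libraries at 1.0 µM overlapped with those given vehicle. Plekha6 had 16.1, 7.76 and 12.2 CPM at 1.0 µM and 2.53, 2.41 and 3.65 CPM with vehicle in mock cells, and its log2 change in T-N1G cells was −0.77. Fam13a (−5.31), Nfe2l1 (−3.78) and Fbxo2 (−3.75) had a lower response in mock cells. Fbxo2, an F-box protein that recognises sugar chains, had 1.8, 2.32 and 1.87 CPM at 1.0 µM and 2.12, 2.64 and 2.69 CPM with vehicle in mock cells, against a log2 change of 3.44 in T-N1G cells. Fragments of the T-N1G construct and of the cell's own Nfe2l1 cannot be told apart.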

How the results depend on the processing

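The number of genes called between 1.0 µM and vehicle in mock cells was 9244, and 8609 to 9550 under 13 other settings, with 8679 to 9166 when one library was left out. Of the calls 46.4% were higher, and 41.0% (library sizes) to 52.4% (no filter on low counts) under other settings, while the median over all genes moved from −0.04 to 0.04 with relative log expression and to −0.13 with library sizes. List members called numbered 886 to 966, genes called between the doses 5335 to 7022, and differences from T-N1G cells 5099 to 6388. With the replicate number as a block 9491 genes were called. The block raised 20 list counts beyond 1.5 times the count given, the interferon list's difference between the lines among them. A call was gained with it for 1 gene followed against vehicle. No called value of the genes followed against vehicle changed sign. A call was lost under some alternative for 12 of them (Bcl2, Hsf1, Hspb11, Jund, Oaz1-ps, Psmb10, Rpl26, Slc7a5, Stat2, Thy1, Uba6 and Vim), and gained for 8. Of 6660 values of list counts under other settings 6027 stayed within 1.5 times the count given. Fitting 2 groups alone, or leaving out a library, lowers the number of samples behind each test. Genes with few vehicle fragments rest on floors.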

Other observations

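Genes of fast skeletal muscle were chosen after their values were seen, since they were among the largest decreases outside the expression limit of the naming rule. Tnnt3, the fast troponin T, had 0.113, 0.0528 and 0.0959 CPM at 1.0 µM, against 1.57, 1.34 and 1.37 CPM with vehicle (log2 −3.94). Myh4, a fast myosin heavy chain, had 0.451, 0.264 and 0.048 CPM at 1.0 µM, against 3.22, 3.01 and 2.65 CPM with vehicle (log2 −3.56, and −4.18 without library 1 at 1.0 µM), and Mylpf, a myosin light chain, had 0.169, 0.264 and 0.24 CPM, against 2.81, 2.31 and 2.37 CPM with vehicle (log2 −3.43). All vehicle libraries held these transcripts at a low level and the libraries at 1.0 µM hardly any. At 0.3 µM mock cells were near the vehicle level, with 1.39, 2.2 and 0.829 CPM of Tnnt3 and 2.98, 3.38 and 2.58 CPM of Myh4. In T-N1G cells Myh4 had 0, 0.226 and 0.217 CPM at 1.0 µM, against 3.2, 5.2 and 2.85 CPM with vehicle. The log2 changes in T-N1G cells were −3.73 for Tnnt3, −4.57 for Myh4 and −3.54 for Mylpf, and the differences from mock cells (−0.21, 1.01 and 0.11) were not called. Of the 5 muscle markers 2 were tested, with a summed level of 0.5 to 0.7 CPM at 1.0 µM and 0.3 to 0.8 CPM with vehicle. Myh3 was called higher, with 14 fragments at 1.0 µM and none with vehicle, at least 5.29-fold higher against the floor of 3 fragments over the vehicle group, and was not called when the groups compared were fitted alone. Des was not called (log2 −1.08). The source of these transcripts was not tested.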
